A study of Homo sapiens with 6 samples.

Results

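The genes described here are the small nucleolar RNA host genes: each gene whose GENCODE release 29 symbol is SNHG followed by a number, together with GAS5, ZFAS1, EPB41L4A-AS1 and RACK1. The rule gave 29 gene records with 28 symbols (SNHG28 has 2 records) among the 58395 genes of the deposited table. Of these, 27 are annotated as noncoding, and 23 of the 29 reached a mean of at least 1 FPKM (fragments scaled to exon length in kilobases and to a size set for each library) over the 6 libraries and were tested. The libraries were made from melanospheres, spheres of cells grown without attachment, of the established human melanoma line M14. Dissociated spheres were stained for CD20, the product of MS4A1 and best known from B cells, and flow sorted into 3 CD20-positive and 3 CD20-negative fractions, with no drug, transgene or further treatment named in the labels for either group. Both groups are sorted fractions of 1 cell line, and the labels name no separate cultures for the replicates. The p-values therefore cover the spread among these 6 samples, and part of that spread may be technical.

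Small nucleolar RNAs (snoRNAs) are short nuclear RNAs that guide chemical modification of ribosomal RNA. Those with a C and a D box direct methylation of ribose, and those with an H box and an ACA motif direct conversion of uridine to pseudouridine; the related scaRNAs act in Cajal bodies. Most human snoRNAs are cut from introns of a host gene after splicing. Host genes of the SNHG type yield spliced, polyadenylated RNAs with little or no coding capacity, many of which start with a run of pyrimidines, as mRNAs of ribosomal proteins do, and many of which are removed by nonsense-mediated decay when ribosomes read them.

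Of the 23 tested host genes, 7 fell in CD20-positive cells in the fit that keeps the replicate number as a block: SNHG19, SNHG9, EPB41L4A-AS1, SNHG6, SNHG16, ZFAS1 and SNHG8. Over all tested genes the fit with the block called 2.64% lower and 3.19% higher. In the fit without the block, the main design, none of the 7 passed. Their mean FPKM in CD20-positive cells was between 0.563 and 0.654 times that in CD20-negative cells. No host gene rose in either fit. The other 16 were not called, among them GAS5, RACK1 and SNHG1, 3 of the 4 whose mean reached 50 FPKM. The table's values are a level of RNA per library, so fewer cells with a transcript and less of it per cell cannot be told apart.

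The sequences below are 1 snoRNA from each of 6 of the 7 genes that fell, shown as examples of what these hosts carry; SNHG16 also holds SNORD1A and SNORD1C, and ZFAS1 also holds SNORD12 and SNORD12B. They are GENCODE release 29 transcript sequences on GRCh38, 5′ to 3′ as DNA letters. Capitals mark the first TGATGA (C box) and the last CTGA (D box) in box C/D snoRNAs and the last ACA in H/ACA snoRNAs, each found by a search of these letters on the transcribed strand.
SNORD60 in SNHG19, chr16:2155023-2155105: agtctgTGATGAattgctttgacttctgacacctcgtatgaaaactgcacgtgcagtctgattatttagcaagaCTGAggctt
SNORD1B in SNHG16, chr17:76561109-76561192: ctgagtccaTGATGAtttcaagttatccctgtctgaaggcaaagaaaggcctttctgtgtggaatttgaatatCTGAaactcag
SNORD12C in ZFAS1, chr20:49278940-49279028: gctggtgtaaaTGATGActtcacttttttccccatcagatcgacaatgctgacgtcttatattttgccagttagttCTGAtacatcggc
SNORA24 in SNHG8, chr4:118279190-118279320: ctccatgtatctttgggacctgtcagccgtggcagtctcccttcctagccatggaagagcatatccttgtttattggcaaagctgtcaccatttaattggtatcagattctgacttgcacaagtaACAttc
SNORA13 in EPB41L4A-AS1, chr5:112161485-112161617: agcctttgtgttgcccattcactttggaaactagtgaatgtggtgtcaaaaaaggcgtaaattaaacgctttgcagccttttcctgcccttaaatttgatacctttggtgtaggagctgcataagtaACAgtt
SNORA78 in SNHG9, chr16:1965184-1965310: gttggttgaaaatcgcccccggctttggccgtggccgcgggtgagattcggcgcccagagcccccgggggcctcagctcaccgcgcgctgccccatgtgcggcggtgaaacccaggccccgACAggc

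The annotation holds 138 snoRNA or scaRNA genes within the members on the same strand, 84 of them in the long SNHG14 locus and 54 in the other members. It lists none within GAS5. These short RNAs have no poly(A) tail, and the libraries were made from polyadenylated RNA, so their values say little about mature snoRNAs. Of the 138, 108 were at 0 in all 6 libraries. These include each of the 46 that overlap an exon of their host, so a 0 there may reflect how fragments shared by 2 genes were counted, which was not tested, and does not measure a level. Over the 138, the summed fragments came to 300, 455 and 391 in CD20-negative and 191, 377 and 311 in CD20-positive replicates 1, 2 and 3. The 3 with the highest mean were SNORD104 in SNHG25 (70.7 FPKM), SNORA73B in SNHG3 (24.8 FPKM) and SNORD99 in SNHG12 (14.5 FPKM), of lengths 70, 204 and 74 bases. SNORD104 held 56, 149 and 83 fragments in CD20-negative and 49, 101 and 73 in CD20-positive replicates, with overlapping groups. The rest of the account therefore concerns the host transcripts.

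A second set of sequences shows the RNA start of host genes, because a C followed by pyrimidines at the start base is the mark of terminal oligopyrimidine (TOP) RNAs, whose translation is set by growth signals. RefSeq promoter entries (GRCh38.p14) matched 19 of the 23 tested members. SNHG6, SNHG9, SNHG15 and SNHG25 had no entry. Each line gives 60 bases, 30 before the RefSeq start and 30 from it, on the gene's strand. Capitals mark a C at the start base followed by at least 4 pyrimidines (C or T), searched on the gene's strand only. The first 6 genes have such a run. The last 3 fell and have none at the RefSeq start base.
SNHG19, chr16:2155329-2155388, minus strand: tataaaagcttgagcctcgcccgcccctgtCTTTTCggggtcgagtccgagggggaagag
ZFAS1, chr20:49278612-49278671, plus strand: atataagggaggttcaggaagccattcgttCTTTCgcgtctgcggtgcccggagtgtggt
SNHG5, chr6:85678704-85678763, minus strand: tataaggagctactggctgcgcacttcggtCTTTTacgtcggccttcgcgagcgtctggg
RACK1, chr5:181243877-181243936, minus strand: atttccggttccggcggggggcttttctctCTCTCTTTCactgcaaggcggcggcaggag
SNHG4, chr5:139274071-139274130, plus strand: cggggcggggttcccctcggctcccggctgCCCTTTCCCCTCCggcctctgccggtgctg
SNHG12, chr1:28581844-28581903, minus strand: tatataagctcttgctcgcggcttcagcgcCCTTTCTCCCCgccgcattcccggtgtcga
EPB41L4A-AS1, chr5:112160496-112160555, plus strand: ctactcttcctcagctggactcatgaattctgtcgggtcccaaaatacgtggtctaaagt
SNHG16, chr17:76557734-76557793, plus strand: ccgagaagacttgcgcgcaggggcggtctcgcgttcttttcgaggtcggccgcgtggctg
SNHG8, chr4:118278732-118278791, plus strand: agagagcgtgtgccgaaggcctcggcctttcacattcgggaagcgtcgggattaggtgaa

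The run was at the start base of 6 of the 19 members (31.6%), of 4.07% of all 35116 RefSeq starts, and of 48 of the 85 starts of cytosolic ribosomal protein genes (56.5%). A C with 4 pyrimidines anywhere from 5 bases before to 10 bases after the start base was found in 10 of the 19 and in 21.1% of all starts. Among the 6 members with the run at the start base, 2 fell (SNHG19 and ZFAS1) and the median log2 change was -0.45. Among the 13 without it, 3 fell (EPB41L4A-AS1, SNHG16 and SNHG8) and the median was -0.15. Of these 3, SNHG16 and SNHG8 had a C with 4 pyrimidines in the wider span and EPB41L4A-AS1 did not. SNHG7 and SNHG17, which were not called, also had it in the wider span only. Whether the run goes with the change was not tested. RefSeq and GENCODE place some starts far apart (464 bases for ZFAS1 and 4190 for RACK1), so a match or its lack holds for the RefSeq start only.

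The libraries held 15651183 to 17915942 recovered fragments. The size by which the deposited values are scaled differs from these totals: it was 17830468 to 19782432 in CD20-negative and 15107847 to 16032265 in CD20-positive libraries. MS4A1 measured 0.225, 0.263 and 0.403 FPKM in CD20-negative and 1.24, 0.966 and 1.28 FPKM in CD20-positive replicates. Of the other B-lineage markers, CR2 and BANK1 were at 0 in all libraries, and the rest of that list is not reported here. Of 8 melanocytic markers, PMEL and MITF reached a mean of 1 FPKM and the other 6, SOX10, MLANA and TYR among them, did not; the summed level was 11.1 to 21.4 against 17.4 to 35.7 FPKM. PMEL, a melanosome protein gene that makes up most of that sum, was higher in CD20-positive cells in each replicate (log2 change 0.75, limma with the block, adjusted p = 0.0117; 0.613 without it), with overlapping groups. The mitochondrial genome took 4.25 to 5.73% of the fragments in CD20-negative and 11.9 to 20.6% in CD20-positive libraries. The part of these differences in the results on host genes was not tested.

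In the fit without the replicate block 0 of the 23 host genes were called (limma, adjusted p under 0.05), against 0.0076% of the 13155 tested genes, and 7 had an unadjusted p under 0.05, against 9.2% of all tested genes; limma's voom on recovered fragments also called 0, with 6 at an unadjusted p under 0.05. With the block, 7 of 23 were lower and 0 higher. Among all tested genes 5.83% were called in that fit, 2.64% lower and 3.19% higher. The groups did not overlap, with each CD20-positive library below each CD20-negative library, in 8 of 23 host genes (6.14% of all tested genes) and in the opposite direction in 0 (8.87%). The median log2 change was -0.33 for the host genes and 0.00 for all tested genes, and 15 of 23 host genes had a value below 0 (49.9% of all tested genes). Scaled to the FPKM total, mitochondrial genes included, all 23 had a value below 0, but the median of all tested genes was then -0.41 and 1355 of 1383 calls were lower. The calls with the block use a prior spread taken over all genes. Without that prior 0 of the 23 passed (6 at an unadjusted p under 0.05), 1 (SNHG21, not among the 7) passed without both libraries of replicate 3, 0 passed without both libraries of replicate 2 (8 unadjusted), and 10 passed without both of replicate 1. Correcting for the median length and median GC share of each gene's transcripts, an alternative added after seeing the data, left SNHG9 as the 1 host gene called with the block. The log2 changes of the other 6 were then -0.76 (SNHG19) to -0.52 (SNHG8), with adjusted p from 0.0515 (EPB41L4A-AS1) to 0.0988 (ZFAS1).

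**Figure D1:**
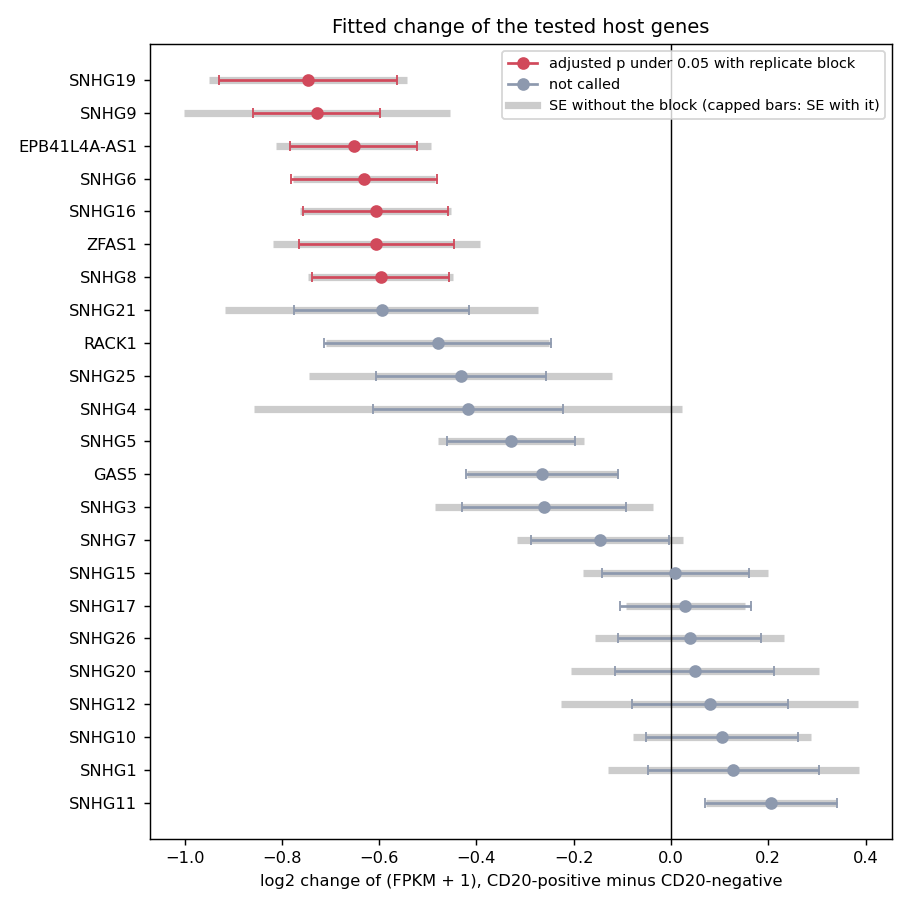
Fitted log2 change of FPKM + 1 (x axis, CD20-positive minus CD20-negative) for the 23 tested host genes, with the standard error from the fit with the replicate block (capped bars) and without it (grey bars). The 7 genes called with the block lie between -0.75 and -0.60, and the 8 genes at the bottom lie between 0.01 and 0.21.

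Among hosts of box C/D snoRNAs, SNHG19 had the highest FPKM of all members after RACK1. That rank depends on the exon length used. The FPKM of GAS5 and SNHG1 uses 3631 and 3756 exon bases, while their median transcripts have 688 and 748 bases. GAS5 held 2858 to 5295 and SNHG1 2152 to 4382 fragments per library, more than SNHG19. SNHG19 (GRCh38 chromosome 16, 2154797 to 2155358, a lincRNA of 342 exon bases that encloses SNORD60) measured 136, 199 and 160.2 FPKM in CD20-negative replicates 1, 2 and 3, and 84.4, 99.03 and 108 FPKM in CD20-positive ones. Each CD20-positive library was below each CD20-negative library. Its log2 change was -0.75 ± 0.18 SE with the block (limma, adjusted p = 0.0362) and -0.75 ± 0.20 SE without it (adjusted p = 0.352). The level rested on 436 to 1211 fragments per library.

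SNHG6, host of SNORD87 (GRCh38 chromosome 8, 66921684 to 66926398), measured 43.2, 51.5 and 53.7 FPKM in CD20-negative and 31.7, 32.0 and 30.7 FPKM in CD20-positive replicates. The CD20-positive libraries had an SD of 0.671 FPKM and lay below all CD20-negative ones. The log2 change was -0.63 ± 0.15 SE with the block (limma, adjusted p = 0.0319). SNHG16 (chromosome 17, 76557766 to 76565348), host of the SNORD1 snoRNAs, measured 23.2, 23.3 and 25.0 FPKM in CD20-negative and 17.9, 15.6 and 12.8 FPKM in CD20-positive replicates, again without overlap. Its log2 change was -0.61 ± 0.15 SE (limma with the block, adjusted p = 0.0366), and the difference within replicates 1, 2 and 3 was -0.36, -0.55 and -0.92. Scaling to the nuclear FPKM total put SNHG16 just past the threshold (adjusted p = 0.0504) and ended the call of ZFAS1 (0.086).

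ZFAS1 (chromosome 20, 49278178 to 49295738) lies head to head with ZNFX1 and hosts the SNORD12 snoRNAs. It measured 13.99, 16.3 and 20.8 FPKM in CD20-negative and 8.82, 13.9 and 9.98 FPKM in CD20-positive replicates. The highest CD20-positive library was just below the lowest CD20-negative one. The log2 change was -0.61 ± 0.16 SE (limma with the block, adjusted p = 0.0464), the weakest of the 7 calls.

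SNHG1 and SNHG5, also C/D hosts, were not called. SNHG1 (chromosome 11, 62851988 to 62855914) carries SNORD22, SNORD25 to SNORD28 and SNORD30 in the annotation. It measured 47.9, 52.7 and 55.0 FPKM in CD20-negative and 37.9, 65.0 and 73.8 FPKM in CD20-positive replicates. CD20-positive replicate 1 was the lowest of the 6 libraries and CD20-positive replicates 2 and 3 were the highest, so the difference within replicates was -0.33, 0.30 and 0.42. SNHG5, host of SNORD50B, measured 10.8, 11.5 and 13.4 FPKM in CD20-negative and 8.20, 9.02 and 10.7 FPKM in CD20-positive replicates. Its groups did not overlap and its differences within replicates were close together (-0.36, -0.32 and -0.31), but the log2 change of -0.33 ± 0.13 SE did not pass (limma with the block, adjusted p = 0.169). GAS5, known as a host of many C/D snoRNAs and as an RNA that accumulates in growth-arrested cells, measured 69.9, 66.6 and 73.7 FPKM in CD20-negative and 52.1, 57.4 and 65.6 FPKM in CD20-positive replicates. The groups did not overlap, and the log2 change of -0.26 ± 0.16 SE did not pass (limma with the block, adjusted p = 0.368).

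**Figure D2:**
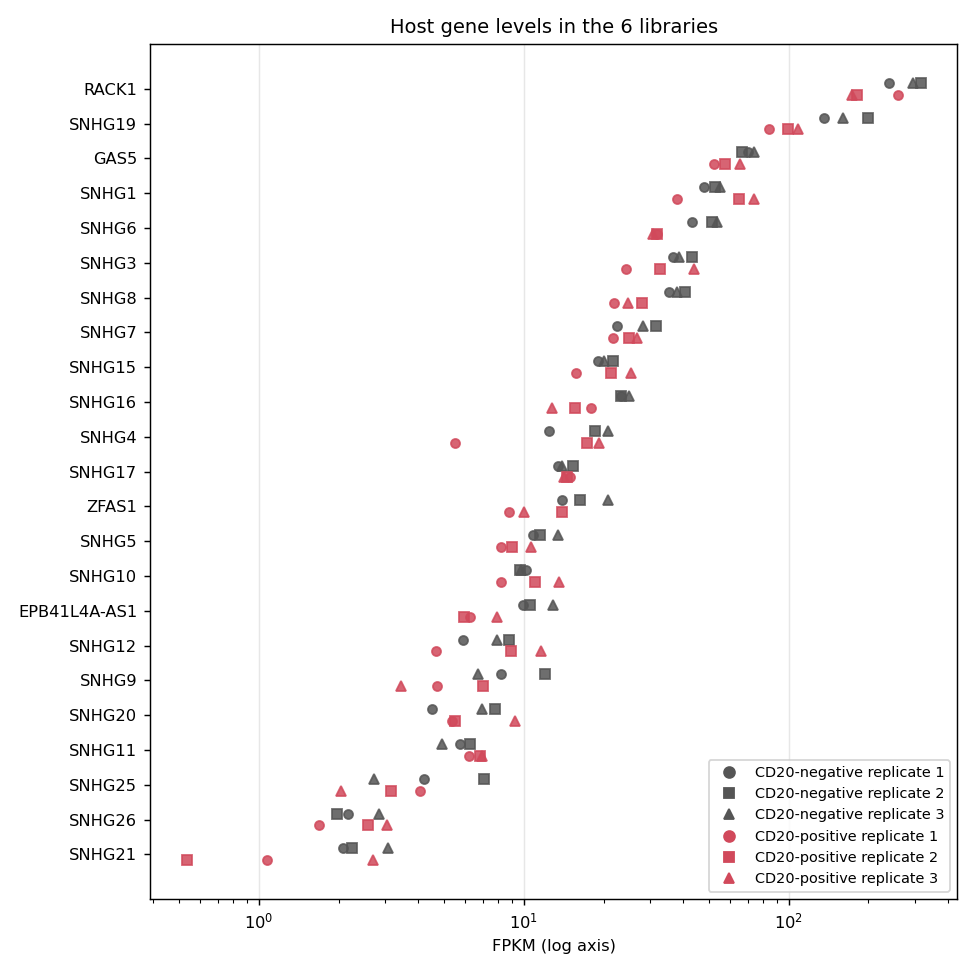
FPKM (x axis, log scale) of the 23 tested host genes in each library, grey for CD20-negative and red for CD20-positive, with a marker shape for each replicate number. Grey and red points are separate for 8 genes, SNHG19, GAS5, SNHG6, SNHG8, SNHG16, ZFAS1, SNHG5 and EPB41L4A-AS1, and overlap for the other 15.

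Among hosts of H/ACA snoRNAs 3 fell. SNHG8 (chromosome 4, 118278709 to 118279823), host of SNORA24, measured 35.3, 40.7 and 38.0 FPKM in CD20-negative and 21.9, 27.9 and 24.7 FPKM in CD20-positive replicates. The groups were far apart relative to their SDs of 2.66 and 2.99 FPKM, and the log2 change was -0.60 ± 0.14 SE (limma with the block, adjusted p = 0.0312). EPB41L4A-AS1 (chromosome 5, 112160526 to 112164276), host of SNORA13, measured 9.94, 10.5 and 12.8 FPKM in CD20-negative and 6.27, 5.93 and 7.91 FPKM in CD20-positive replicates, without overlap. Its log2 change was -0.65 ± 0.13 SE (limma with the block, adjusted p = 0.0156).

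SNHG9 (chromosome 16, 1964959 to 1965509), host of SNORA78, measured 8.21, 12.01 and 6.70 FPKM in CD20-negative and 4.69, 7.02 and 3.44 FPKM in CD20-positive replicates. CD20-positive replicate 2 was above CD20-negative replicate 3, so the groups overlapped, while the difference within replicates was nearly constant at -0.70, -0.70 and -0.79. The log2 change was -0.73 ± 0.13 SE with the block (limma, adjusted p = 0.0101) and -0.73 ± 0.27 SE without it (adjusted p = 0.504). It rested on 30 to 118 fragments per library, the fewest of the 7.

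The remaining H/ACA hosts were not called. SNHG3, which carries the rRNA-processing snoRNAs SNORA73A and SNORA73B, measured 36.6, 43.1 and 38.6 FPKM in CD20-negative and 24.3, 32.7 and 43.8 FPKM in CD20-positive replicates; the CD20-positive libraries held both the lowest and the highest value. SNHG7, host of the SNORA17 snoRNAs, measured 22.4, 31.5 and 28.1 against 21.8, 24.9 and 26.7 FPKM. SNHG15, host of SNORA9, measured 19.1, 21.8 and 20.04 against 15.7, 21.3 and 25.4 FPKM. These 3 genes had overlapping groups, and SNHG15 and SNHG3 were below their CD20-negative partner in replicates 1 and 2 but above it in replicate 3. SNHG17, host of the SNORA71 snoRNAs, was the steadiest member, at 13.4, 15.3 and 13.996 FPKM in CD20-negative and 14.96, 14.5 and 14.2 FPKM in CD20-positive replicates. SNHG4, host of SNORA74A and SNORA74D, measured 12.4, 18.6 and 20.8 against 5.52, 17.4 and 19.2 FPKM. The low value of CD20-positive replicate 1 set its mean change: the log2 change was -0.42 with all libraries, 0.10 without that library and -0.10 with the block without both libraries of replicate 1. With the block it passed in 2 alternatives, among genes with a mean from 10 FPKM up (adjusted p = 0.0339) and with limma's voom (0.0478). The prior was infinite for 93.4% of genes in the first of these fits and had a median of 82404 in the second. Both p-values therefore rest mostly on a spread shared among genes.

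**Figure D3:**
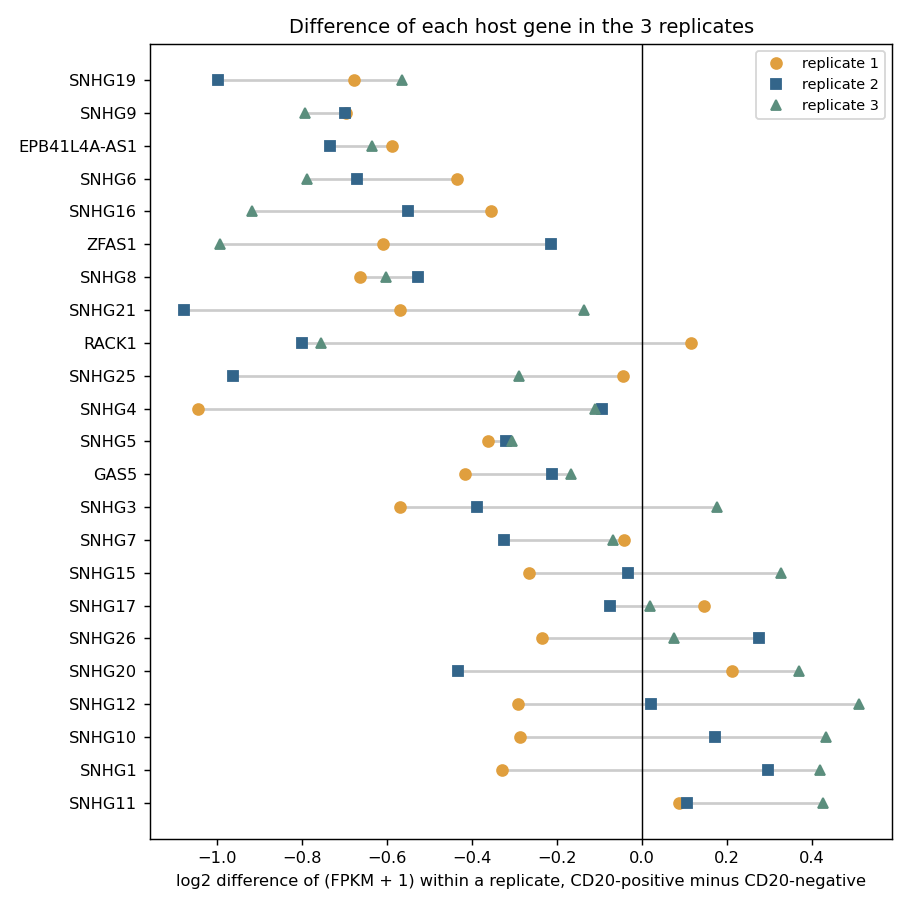
Difference of log2(FPKM + 1) between the CD20-positive and the CD20-negative library of the same replicate number (x axis) for each tested host gene, with 1 marker for each replicate. The 3 markers lie below 0 for 13 genes (20.3% of all tested genes) and above 0 for SNHG11 alone, and for SNHG1, SNHG10, SNHG12 and SNHG26 replicate 1 lies below 0 and the others above.

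RACK1, 1 of the 2 members annotated as protein-coding and the most abundant, encodes a scaffold protein of the small ribosomal subunit and hosts SNORD95 and SNORD96A. It measured 239, 315 and 294 FPKM in CD20-negative and 259, 180.5 and 174 FPKM in CD20-positive replicates. CD20-positive replicates 2 and 3 were the lowest of the 6 libraries, while CD20-positive replicate 1 was above its CD20-negative partner. The log2 change of -0.48 ± 0.23 SE did not pass (limma with the block, adjusted p = 0.262). Without both libraries of replicate 1 it was -0.78 (limma with the block, adjusted p = 2.2e-05). That fit called 2141 of the 13155 tested genes. Its prior was infinite for 90.3% of genes, so its p-values rest mostly on a spread shared among genes. The FPKM of RACK1 uses the 5990 exon bases of its 35 transcripts together, while the median transcript has 843 bases. Its level against other genes depends on that choice.

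Of the remaining tested members none was called. SNHG10, host of SCARNA13, measured 10.2, 9.69 and 9.80 FPKM in CD20-negative and 8.20, 11.03 and 13.6 FPKM in CD20-positive replicates, the CD20-positive libraries lying on both sides of the others. SNHG11, SNHG12, SNHG20, SNHG21, SNHG25 and SNHG26 had means of 1 to 10 FPKM. SNHG11 had the highest log2 change of the family (0.21 ± 0.14 SE, limma with the block, adjusted p = 0.428), and SNHG21 the lowest of those not called (-0.60 ± 0.18 SE, adjusted p = 0.0791). SNHG21 rested on 9 to 64 fragments and SNHG25 on 9 to 35. Without both libraries of replicate 1, SNHG21, SNHG25 and RACK1 joined the 7, in a fit that called 2141 of the 13155 tested genes.

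Of the 6 untested members, SNHG14, which carries the SNORD115 and SNORD116 clusters of the imprinted Prader-Willi region, measured 0.623 to 0.877 FPKM. SNHG28 (1 of its 2 records) and SNHG22 measured 0.0981 to 0.453 and 0.0205 to 0.234 FPKM. SNHG18, SNHG27 and the other record of SNHG28 were at 0 in all libraries; for SNHG18 and SNHG27 a count of 0 allows up to 3 fragments per library. The SNHG28 record at 0 shares all of its 2242 exon bases with another gene, so its 0 sets no limit on its level.

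Shared exon bases leave some values uncertain, since the kit named in the labels does not mark strand and no source used here says whether counting used strand. Of the exon bases of EPB41L4A-AS1, 49.6% are also exon of EPB41L4A on the opposite strand. The values were 30.6% for SNHG16 (with AC015802.6), 29.3% for SNHG6 (with MCMDC2) and, for ZFAS1, 249 of 2243 bases with ZNFX1. EPB41L4A, AC015802.6 and MCMDC2 each had a mean of at most 0.224 FPKM in either group. Over all other genes on either strand, snoRNA genes included, the shared part was 46.9% for ZFAS1, 36.4% for SNHG6 and 33.4% for SNHG16. It was 23.0% for SNHG9 and 14.2% for SNHG8. SNHG19 shares no exon base with another gene.

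Host genes that start within 1000 bases of a tested protein-coding gene on the opposite strand were 4, and the neighbours' values are given beside them. ZNFX1, an RNA helicase gene whose start is 248 bases from that of ZFAS1, measured 9.24 ± 0.795 FPKM in CD20-negative and 9.56 ± 1.12 FPKM in CD20-positive libraries (SD, n = 3), a log2 change of 0.04 beside -0.61 for ZFAS1. TRAF7, a ubiquitin ligase gene 340 bases from SNHG19, measured 30.7 ± 1.89 and 30.8 ± 5.11 FPKM, a change of -0.01 beside -0.75. RPS2, a ribosomal protein gene 99 bases from SNHG9, measured 861 ± 101 and 481 ± 164 FPKM, a change of -0.88 (limma with the block, adjusted p = 0.0954) beside -0.73. SLC3A2, an amino acid transporter subunit 188 bases from SNHG1, measured 38.6 ± 6.87 and 56.3 ± 8.19 FPKM, a change of 0.54 (adjusted p = 0.0611) beside 0.13. None of the 4 neighbours was called, and whether host and neighbour differ from each other was not tested.

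Summed over the 29 members, the level was 777, 974 and 914 FPKM in CD20-negative and 647, 664 and 701 FPKM in CD20-positive replicates. Without RACK1 the sums were 538, 659 and 620.4 against 388, 484 and 527 FPKM. For both sums the highest CD20-positive value was below the lowest CD20-negative one. As a share of the FPKM outside the mitochondrial genome the members took 0.322, 0.418 and 0.408% against 0.265, 0.324 and 0.347%, and here the groups overlapped, while each CD20-positive library was below its partner.

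Genes that act with the host genes were taken from lists chosen with them, and calls are those of the fit with the block; without the block 0 genes of these lists passed, with the number at an unadjusted p under 0.05 given for each. Of the 8 core proteins of snoRNPs, the particles in which snoRNAs work, 2 were lower and 6 not called (1 unadjusted), with a median of -0.33: SNU13, the box C/D primary binding protein, went from 76.9 ± 10.5 to 50.3 ± 17.2 FPKM (log2 change -0.64, adjusted p = 0.0431) and NOP10, of the H/ACA particle, from 148 ± 49.2 to 96.6 ± 58.7 FPKM (-0.72, adjusted p = 0.0464; SD, n = 3 libraries per group, limma). NHP2, also of the H/ACA particle, was at -0.62 (adjusted p = 0.0718). Of 12 tested snoRNP assembly and transport factors 0 were called (0 unadjusted, median -0.14); ZNHIT6, RPAP3 and NAF1 had the smallest p, with changes of -0.30, -0.24 and -0.20.

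Nonsense-mediated decay factors had 0 of 15 called (0 unadjusted, median -0.03), with MAGOH at -0.33, UPF3A at 0.29 and SMG9 at 0.25. Reported targets of that decay other than the host genes had 0 of 13 called (1 unadjusted, median -0.02); the splicing factor genes SRSF6 and SRSF2 were at 0.40 and 0.41, with each CD20-positive library above each CD20-negative one, and SRSF3 was at -0.27. The medians of both lists were near that of all tested genes.

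Translation genes of the TOP class outside the ribosomal proteins had 6 of 20 lower, 0 higher and 14 not called (10 unadjusted, median -0.59). EEF1B2, an elongation factor subunit that also hosts snoRNAs, went from 26.2 ± 14.7 to 6.33 ± 3.38 FPKM (SD, n = 3; log2 change -1.82, limma with the block, adjusted p = 0.000246). TPT1 and NACA, a growth-related protein and a nascent-chain binding protein, changed by -1.06 and -0.91. Of 29 tested protein-coding snoRNA hosts, EEF1B2 was the 1 called (4 unadjusted, median -0.18). RCC1 and CNBP were at -0.40 and -0.52 with no overlap between groups. RCC1 (chromosome 1, 28505943 to 28539300) encloses the member SNHG3 (28505980 to 28510892) on the same strand, so it is not a separate locus. Cytosolic ribosomal protein genes, many of which host snoRNAs, had 44 of 79 lower and 0 higher (70 unadjusted, median -0.85), with RPL38, RPL39 and RPL26 at -1.44, -1.36 and -1.05.

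The median difference within replicates 1, 2 and 3 was -0.36, -0.33 and -0.14 for the host genes, -0.40, -0.99 and -1.22 for ribosomal protein genes and -0.21, -0.64 and -0.84 for the other TOP translation genes. By these medians the host genes were lowest in replicate 1 and nearest to 0 in replicate 3. The medians of the ribosomal protein and TOP lists were nearest to 0 in replicate 1. The host genes called with the block did not share the order of their list's medians. Among them SNHG6, SNHG16, ZFAS1 and SNHG9 were lowest in replicate 3, SNHG19 and EPB41L4A-AS1 in replicate 2, and SNHG8 in replicate 1. Host genes below 0 numbered 19, 18 and 14 of 23 in replicates 1, 2 and 3. Mitochondrial mRNAs, for comparison, were at 2.45, 1.03 and 1.90. Whether the lists differ in this order was not tested.

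**Figure D4:**
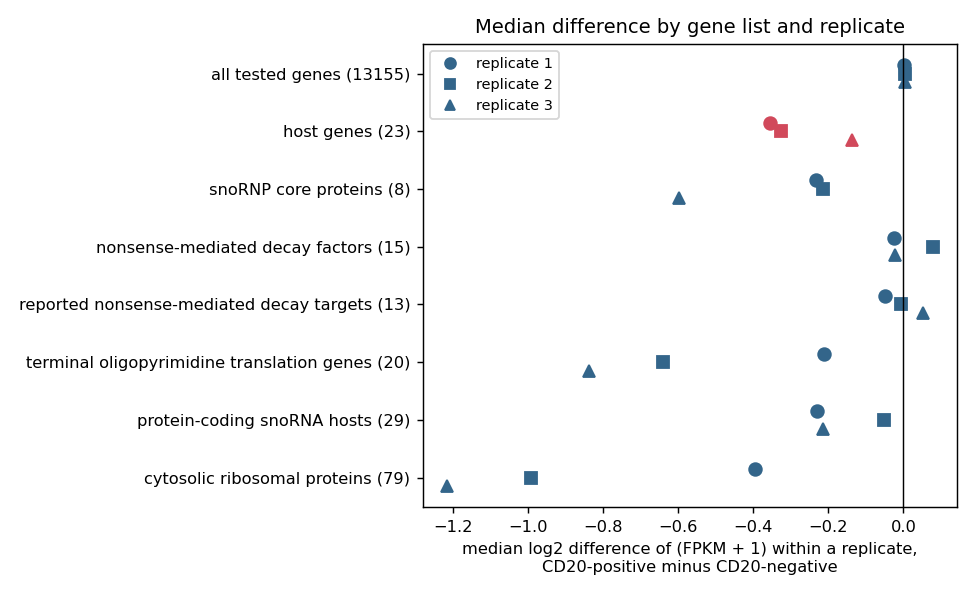
Median difference of log2(FPKM + 1) within each replicate (x axis, CD20-positive minus CD20-negative) over the tested genes of each list, with the number of tested genes in brackets. Host genes (red) lie between -0.36 and -0.14, decay factors and targets near 0, and ribosomal protein genes between -1.22 and -0.40.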

How the data were processed

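RNeasy RNA was selected for poly(A), prepared with a TruSeq kit (v2) and run on a NovaSeq, per the labels' protocols. The submitters' processing notes name GRCh38 (hg38), HISAT2, DESeq2 and featureCounts 1.5.0, without settings or the use of strand. The deposited table names no unit. Its values are FPKM by the authors: multiplied by GENCODE release 29 exon lengths, 98.1 to 98.6% of low values (up to 20 reads) were whole multiples of 1 step per library within 0.02 reads, and this step gave the recovered fragments. Of the identifiers, 58275 matched that annotation and 120 did not.

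Genes whose mean reached 1 FPKM were tested on log2(FPKM + 1), which understates changes of low genes, with limma 3.58.1 in R 4.3.3 (trend, robust prior), CD20-positive minus CD20-negative, Benjamini-Hochberg adjusted over all 13155 tested genes, threshold 0.05. A limit of 1 rather than 10 FPKM keeps 8 more host genes in the test. The main design has no block. Deviations of same-numbered libraries from their group means correlated at 0.67, 0.24 and 0.51 across tested genes. CD20-negative replicate 2 correlated better with CD20-positive replicate 3 (0.43), and CD20-negative replicate 3 correlated at 0.40 with CD20-positive replicate 2. The correlations thus go with the pairing of replicate 1 and do not settle that of replicates 2 and 3. The replicate numbers of the labels were taken as pairing the samples, and another pairing was not tested. Values with the number as a block are given beside the main design. The block leaves 2 residual degrees of freedom per gene, with a median prior of 10.2. Without both libraries of replicate 1 or of replicate 3 the median prior was infinite. The p-values of those fits rest mostly on a spread shared among genes.

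Members were chosen by symbol, and values in every library are given for those with a mean of at least 10 FPKM or a call in either design; of each list, up to 3 genes with the smallest p are named. Members and lists were chosen with earlier results of these data known. Exact permutation tests with 3 against 3 cannot go below p = 0.1 and were not used for calls. On simulated data with known changes the fit recovered most of them, but with more false calls than the threshold allows. The simulated counts had no replicate effect, and their changes were larger than those of the host genes. They therefore do not show how well changes of the host genes' size are found. Alternatives covered pseudocount, filter, scaling, prior, voom on recovered fragments and libraries left out. Fragment counts carry no molecular identifiers, so limits cover counting error only. Some markers and neighbouring genes are not reported here.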

Additional observations from a re-analysis of the deposited data

How the results depend on the processing

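Without the block, 1 gene was called over all tested genes; the count was 767 with the replicate block, 1383 with scaling to the FPKM total, 2 with a pseudocount of 10, and 0 with no filter, voom, or the length and GC correction (added after seeing the data), and leaving out 1 library gave 0 to 322. With the block it was 954 at a mean of at least 10 FPKM, 943 with scaling to the nuclear FPKM total, 0 with each gene's own spread, 1619 with voom, 116 with the length and GC correction, and 331, 1 and 2141 without replicates 3, 2 and 1. Of the host genes 0 were called without the block and 7 with the replicate block; the count was 6 with scaling to the FPKM total (without the block), and with the block 6 at a mean of at least 10 FPKM, 5 with the nuclear total, 8 with voom, 0 with own spread, 1 with the length and GC correction, and 1, 0 and 10 without replicates 3, 2 and 1. The host genes' median of -0.33 moved to -0.18 with a pseudocount of 10 and -0.80 with the FPKM total, where the median of all genes was -0.41; leaving out 1 library gave -0.39 to -0.19, and -0.20 was the value with the block without replicate 1. The ratio of their share of nuclear FPKM, 0.815, was 0.536 over the whole FPKM total and 0.696 as a share of fragments, and 0.755 to 0.876 with 1 library left out. Where these moves do not follow from fewer libraries or genes, the cause was not tested.

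Of 404 values of the 17 members named in each library, 387 kept their direction over the 24 alternatives and 17 did not, in 5 members not called in the main fit or with the block alone (SNHG4 passed with the block under the filter of 10 FPKM and under voom). With the FPKM total SNHG1, SNHG15, SNHG17 and SNHG10 turned to -0.38, -0.48, -0.45 and -0.36. Leaving out 1 library gave -0.059 to 0.41 for SNHG1, -0.14 to 0.19 for SNHG15 (-0.033 without CD20-negative replicate 1, -0.020 without CD20-positive replicate 2), -0.0096 to 0.080 for SNHG17, -0.051 to 0.28 for SNHG10 and -0.71 to 0.10 for SNHG4. With the block, SNHG1, SNHG15 and SNHG10 were at -0.016, -0.15 and -0.058 without replicate 3, and SNHG17 at -0.028 without replicate 1. SNHG17 was at -0.0083 with the length and GC correction, with or without the block. Depth limits SNHG9, SNHG21 and SNHG25, with 9 to 118 fragments per library.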

Other observations

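A newer list of gene names gives an SNHG symbol to 4 genes that carry another symbol in GENCODE release 29 and so lie outside the rule. SNHG29 (LRRC75A-AS1 in that release) measured 57.6, 66.2 and 79.7 FPKM in CD20-negative and 49.6, 42.6 and 44.5 FPKM in CD20-positive replicates, with no overlap between groups and a log2 change of -0.55 ± 0.17 SE (limma with the block, adjusted p = 0.0743; 0.421 without it). SNHG30 (LINC02001) measured 20.3, 18.5 and 17.3 against 12.3, 17.3 and 16.7 FPKM, with overlap and a change of -0.27 (adjusted p = 0.353 with the block). SNHG31 and SNHG32 (C6orf48) reached at most 0.319 and 0.105 FPKM and were not tested. These 4 were looked up after the values of the members were seen.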
